A study of Homo sapiens with 6 samples.

Results

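RNA polymerase III (Pol III) subunits were followed at the mRNA level through 9 genes: POLR3A, POLR3B, POLR3C, POLR3D, POLR3E, POLR3F, POLR3G, POLR3GL and POLR3K. Members were listed by gene symbol, with earlier results of these data known. All 9 were found among the 63190 genes in the data, with 59 of the 207167 transcripts. All 9 were also among the 20714 genes tested, which averaged 1 RPKM or more over the 6 libraries (RPKM being reads scaled by transcript length and library size). CRCP and the subunits shared with other polymerases were kept as a separate list.

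Pol III makes short non-coding RNAs, among them tRNAs, 5S rRNA, U6 and U6atac snRNA, 7SK, vault RNAs and Y RNAs. Its largest subunits, POLR3A and POLR3B, form the catalytic centre. POLR3D and POLR3E form a dimer needed for initiation and termination, and POLR3C, POLR3F and either POLR3G or POLR3GL form a trimer that opens the promoter. POLR3K takes part in RNA cleavage, termination and reinitiation. POLR3G is known from stem cells and tumours and POLR3GL from most differentiated tissues, so the balance of this pair of paralogs is used to describe the kind of Pol III a cell makes.

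The libraries came from rRNA-depleted total RNA of HEK293T-Rex cells, a human embryonic kidney line (HEK293 in the labels) in which doxycycline switches on an integrated construct. In 3 libraries the cells overexpressed DIS3L2 with the D391N substitution in its catalytic site, a form of this cytoplasmic 3′-5′ exoribonuclease that binds uridylated RNA without degrading it, and 3 libraries were from control HEK293T-Rex FlipIn cells without the construct. The methods give doxycycline induction for the overexpressed constructs and do not state it for the controls. Each condition was 1 cell line, so the construct and the line cannot be told apart, and nothing states that the replicates were separate cultures, so p-values measure the spread between these libraries.

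Depth, estimated from the floor value that unread transcripts have in each library, was about 17700000 to 29100000 reads per library. DIS3L2, construct reads included, was at 369, 467 and 512 RPKM in D391N replicates 1 to 3 and at 11.8, 12.9 and 14.6 RPKM in the controls, a log2 fold change of 5.08 ± 0.18 (SE; limma, adjusted p = 0.000268). Of 9 markers of HEK293 cells, 8 were at a mean of at least 1 RPKM. The sum of the 9 was lower with D391N (394, 421 and 468 RPKM) than in controls (557, 551 and 591 RPKM). Of the 8 tested, 7 had log2 fold changes below 0, beside 57.3% of all genes tested. In 4 of them all D391N libraries were below all controls, beside 20.7% of all genes tested. LIN28B went the other way (28.1, 31.9 and 30.7 RPKM with D391N, 25.3, 22.3 and 15.8 RPKM in controls). None was called, and the part of these differences in the results was not tested. Of 7 markers of blood, endothelium, liver and fibroblasts, 6 were matched and 2 reached that level, and the sum of the 6 was 6.13 to 9.36 RPKM with D391N and 4.34 to 5.30 RPKM in controls, a difference made mostly by DCN (D391N 3.04 to 6.23 RPKM; controls 2.01 to 2.50 RPKM), whose part in the results was not tested. Leaving out D391N replicate 1 raised the number of genes called from 29 to 2267.

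No subunit gene passed the test between D391N and control cells (limma on log2(RPKM + 0.1), Benjamini-Hochberg adjusted p under 0.05). Adjusted p ranged from 0.216 for POLR3GL to 0.971 for POLR3B, and 1 of 9 genes, POLR3GL, had an unadjusted p under 0.05. Over all genes, 0.14% were called (0.135% lower and 0.00483% higher with D391N) and 22.7% had an unadjusted p under 0.05, so neither count of members stood above its background. The median log2 fold change of the 9 genes was 0.08, beside -0.09 over all genes tested, with 6 members above 0 and 3 below. With median centring, which moved the median of all genes to 0.13, 8 members were above 0 and their median was 0.29.

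The 95% interval of the log2 fold change, unadjusted and gene by gene, had its lower bound above -0.6 for 8 of 9 genes. A fall to 50% of the control level, which is -1 on the log2 scale, thus lay outside the interval for these 8 genes and just inside it for POLR3GL, whose lower bound was -1.04. These are intervals of gene sums: that of the coding POLR3K transcript, -1.58 to -0.34, contained -1. So did those of the most abundant transcripts of POLR3B (-1.83 to 0.58), POLR3E (-1.09 to 0.80) and POLR3GL (-1.64 to 0.23). For POLR3A, POLR3C, POLR3D, POLR3F, POLR3G and POLR3K the interval of the most abundant transcript lay above -1. Upper bounds of the gene sums reached 0.71 for POLR3F and 1.40 for POLR3G. Between 143 reads (POLR3GL in D391N replicate 1) and 3268 reads (POLR3D) were estimated behind a gene's value in a library.

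**Figure D1:**
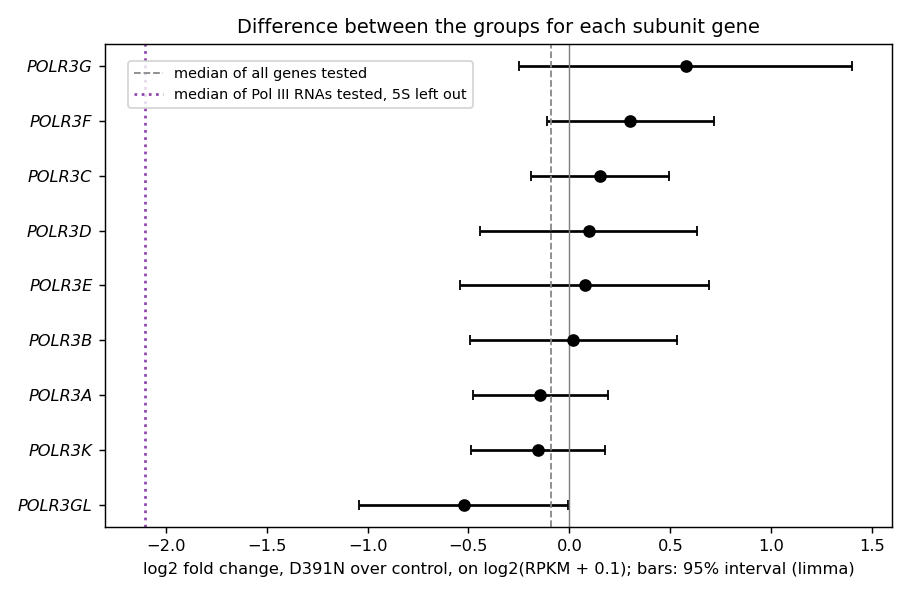
Log2 fold change of each subunit gene, D391N over control, on the log2(RPKM + 0.1) scale (points, with 95% intervals from limma as bars); the dashed line is the median of all genes tested and the dotted line that of the Pol III RNAs without 5S rRNA. The intervals of 8 genes include 0, that of POLR3GL ends at -0.01, and all lie to the right of the dotted line at -2.10.

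Levels in control cells spanned less than 1 order of magnitude. POLR3D was highest, at 107.6 ± 9.7 RPKM (SD, n = 3), followed by POLR3K at 62.2 ± 4.6 and POLR3E at 43.8 ± 5.8 RPKM, and the libraries of these 3 genes did not overlap. POLR3F (30.6 ± 5.2 RPKM), POLR3G (25.1 ± 2.2), POLR3A (24.5 ± 1.1), POLR3C (23.6 ± 2.2) and POLR3B (19.6 ± 3.1) formed a row in which each gene overlapped the next. POLR3GL was lowest, at 13.0 ± 1.8 RPKM, and did not overlap POLR3B. With D391N, POLR3D stayed first and POLR3GL last, and POLR3G moved up to the fourth place, where it overlapped both neighbours. These levels are sums of RPKM over a gene's transcripts, and short partial transcripts weigh heavily in some sums, as described for POLR3D.

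**Figure D2:**
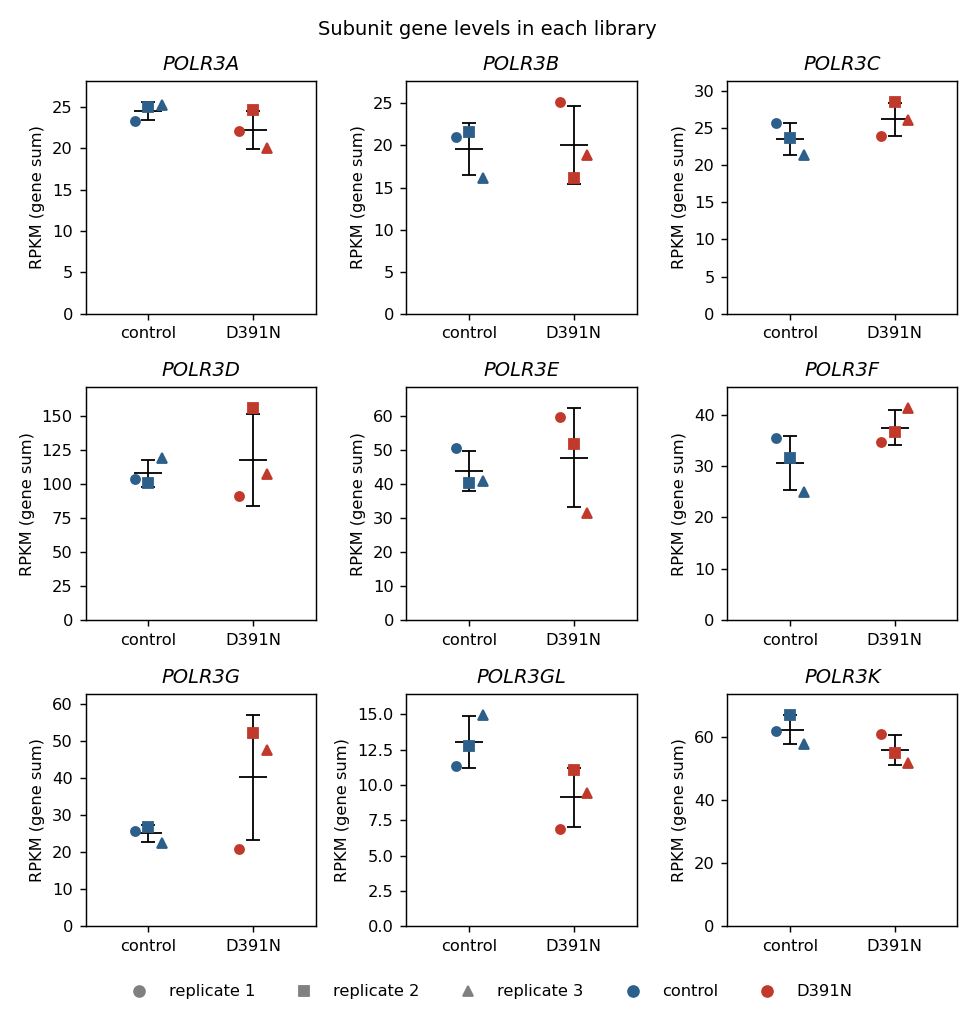
Gene level (RPKM, summed over transcripts) of each subunit in the 3 control and 3 D391N libraries; marker shape gives the replicate number, the horizontal bar the mean and the whiskers the SD. The groups overlap for 8 genes, POLR3GL is lower in all 3 D391N libraries than in any control, and POLR3G is high in D391N replicates 2 and 3.

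The catalytic subunits did not differ between the groups beyond the spread of the libraries. POLR3A (ENSG00000148606; chromosome 10, 77975149 to 78029515; positions here and below are those of RefSeq on GRCh38.p14, the build family of the deposited values) was at 22.1, 24.6 and 20.0 RPKM in D391N replicates 1 to 3 and at 23.3, 25.0 and 25.2 RPKM in the controls. D391N replicates 1 and 3 lay below the controls and replicate 2 among them, with a log2 fold change of -0.14 ± 0.14 (SE, adjusted p = 0.573), which became 0.07 with median centring. POLR3B (ENSG00000013503; chromosome 12, 106357748 to 106510198) was at 25.1, 16.1 and 18.8 RPKM with D391N and at 21.0, 21.6 and 16.1 RPKM in controls. D391N replicate 1 was above each control and the others lay within or at the lower end of the controls, with a log2 fold change of 0.02 ± 0.22 (adjusted p = 0.971).

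Of the dimer, POLR3D (ENSG00000168495; chromosome 8, 22245133 to 22254601) was at 90.8, 155 and 107 RPKM with D391N and at 103, 101 and 119 RPKM in controls. D391N replicate 2 was the highest library and replicate 1 the lowest, so the groups overlapped, with a log2 fold change of 0.09 ± 0.23 (adjusted p = 0.833) that was -0.12 without D391N replicate 2. POLR3E (ENSG00000058600; chromosome 16, 22297409 to 22335096) was at 59.7, 51.6 and 31.5 RPKM with D391N and at 50.5, 40.2 and 40.8 RPKM in controls. The D391N libraries lay on both sides of the controls, and the log2 fold change was 0.08 ± 0.26 (adjusted p = 0.888). Leaving out D391N replicate 1 turned it to -0.11 and leaving out replicate 2 to -0.01.

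The common subunits of the initiation trimer, POLR3C and POLR3F, had log2 fold changes above 0 that did not pass the test. POLR3C (ENSG00000186141; chromosome 1, 145824200 to 145844402) was at 24.0, 28.5 and 26.1 RPKM with D391N and at 25.7, 23.6 and 21.3 RPKM in controls. The log2 fold change was 0.15 ± 0.14 (adjusted p = 0.563). D391N replicates 2 and 3 were above each control and replicate 1 was not. POLR3F (ENSG00000132664; chromosome 20, 18467390 to 18484646) was at 34.7, 36.5 and 41.2 RPKM with D391N and at 35.4, 31.5 and 25.0 RPKM in controls, and again only D391N replicate 1 fell within the controls. Its log2 fold change was 0.30 ± 0.17 (adjusted p = 0.341) and kept its sign in all 19 alternative settings.

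The paralogs POLR3G and POLR3GL had the largest log2 fold changes of the 9 genes, with opposite signs. POLR3G (ENSG00000113356; chromosome 5, 90473929 to 90514557) was at 21.0, 52.2 and 47.6 RPKM in D391N replicates 1 to 3 and at 25.8, 26.8 and 22.6 RPKM in the controls. Replicates 2 and 3 were far above the controls, while replicate 1 was below each of them. The log2 fold change was 0.58 ± 0.35 (adjusted p = 0.357), and without D391N replicate 1 it was 0.99 (adjusted p = 0.0231), in a fit that called 10.9% of all genes tested. This value ranged from 0.34 to 0.99 over the 19 alternative settings.

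POLR3GL (ENSG00000121851; chromosome 1, 145964690 to 145978848) was at 6.92, 11.0 and 9.47 RPKM with D391N and at 11.3, 12.8 and 15.0 RPKM in controls. Each D391N library was below each control, by a narrow margin between D391N replicate 2 and control replicate 1. POLR3GL was the 1 subunit of 9 whose groups did not overlap, beside 31.2% of all genes tested (20.7% separated downwards), and the log2 fold change of -0.52 ± 0.22 had an adjusted p of 0.216. It stayed below 0, between -0.70 and -0.30, in all 19 alternative settings.

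POLR3G made up 75.2%, 82.5% and 83.4% of the sum of POLR3G and POLR3GL in D391N replicates 1 to 3 and 69.4%, 67.7% and 60.2% in the controls. The groups did not overlap in this share, D391N replicate 1 included, although its POLR3G level was not raised. The means were 80.4% ± 4.5 and 65.8% ± 4.9 (SD, n = 3 each), a difference of 14.6 percentage points (exact permutation test, two-sided, p = 0.10, below which 3 libraries against 3 cannot go). The difference lay between 11.8 and 17.2 percentage points when each library was left out in turn, and was 13.9 points from protein-coding transcripts alone. Those still included a 763-nt transcript (ENST00000503373), which made up 71.1% of the POLR3G sum with D391N and 67.8% in controls. The 3251-nt coding POLR3G transcript (ENST00000504930) averaged 3.81 RPKM with D391N and 2.68 RPKM in controls. The leading POLR3GL transcript (ENST00000369314) averaged 5.64 and 8.76 RPKM. The larger share of POLR3G thus holds for sums of RPKM and not for its long coding transcript. In bulk RNA, a change of the share within each cell and a change in the make-up of the culture cannot be told apart.

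**Figure D3:**
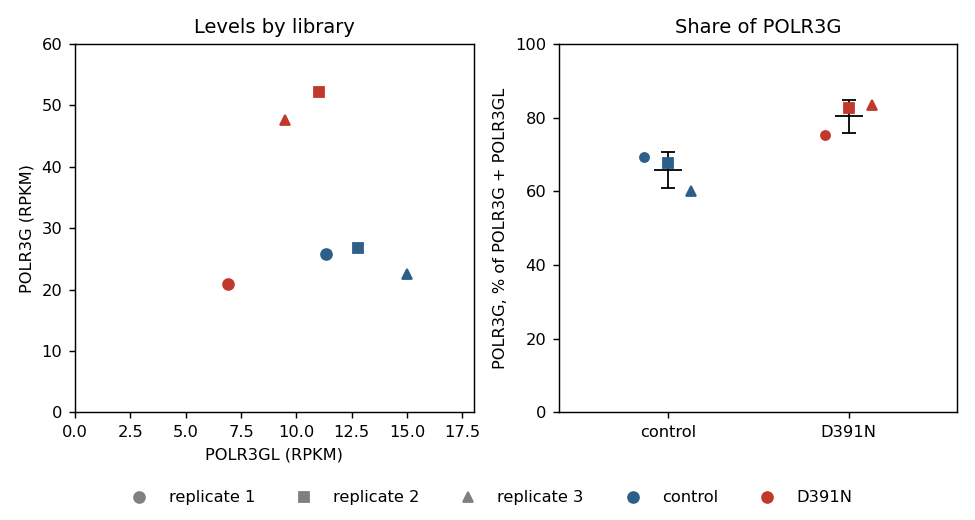
Left, POLR3G against POLR3GL (both in RPKM) for each library; right, POLR3G as a percentage of the sum of both, with mean (bar) and SD (whiskers). D391N replicates 2 and 3 have high POLR3G, D391N replicate 1 has the lowest levels of both genes, and all 3 D391N shares (75.2% to 83.4%) lie above the controls (60.2% to 69.4%).

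POLR3K (ENSG00000161980; chromosome 16, 46407 to 53608) was at 60.9, 54.8 and 51.8 RPKM with D391N and at 61.8, 66.9 and 57.8 RPKM in controls as a gene sum. D391N replicate 1 lay within the controls and the others below them, with a log2 fold change of -0.16 ± 0.14 (adjusted p = 0.541) that was 0.06 with median centring. This sum joined transcripts that differed in opposite directions.

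The 59 transcripts of the 9 genes were examined one by one, since a sum can hide them. Of 40 that averaged 1 RPKM or more, 20 had a log2 fold change above 0 and 20 below, and none passed the test, beside 0.0604% of the 54671 transcripts tested. The groups did not overlap for 12 of the 40, with 7 lower and 5 higher under D391N, or 17.5% and 12.5%, beside 15.6% and 10.1% of all transcripts. BitSeq, which made the values, divides reads among transcripts that share exons, so levels of transcripts of 1 gene depend on each other.

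The protein-coding POLR3K transcript (ENST00000293860) was at 19.3, 12.1 and 14.1 RPKM with D391N and at 27.5, 32.2 and 27.4 RPKM in controls. Each D391N library was below each control, the means being 15.2 ± 3.7 and 29.1 ± 2.7 RPKM (SD, n = 3 each), with 294 to 1286 reads estimated per library. The log2 fold change was -0.96 ± 0.26 (SE, limma, adjusted p = 0.172 over all transcripts). The other POLR3K transcript (ENST00000481810), annotated as retaining an intron, was at 41.6, 42.7 and 37.7 RPKM with D391N and at 34.2, 34.7 and 30.4 RPKM in controls. Here each D391N library was above each control, with a log2 fold change of 0.30 ± 0.21 (adjusted p = 0.492). The coding transcript thus made up 31.7%, 22.1% and 27.1% of the POLR3K sum with D391N and 44.6%, 48.1% and 47.4% in controls, a split that was picked after the values were seen and was given no test.

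Summing only transcripts annotated as protein coding, an alternative chosen after seeing the data, gave a POLR3K log2 fold change of -0.96 with an adjusted p of 0.0418. That fit called 5.22% of its 11351 genes, and POLR3K was the only subunit it called. In it the median of the 9 subunits was 0.25, with POLR3K and POLR3GL (-0.46) below 0 and the other 7 above.

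In POLR3E, a short coding transcript (ENST00000564883) was at 11.4, 14.9 and 8.98 RPKM with D391N and at 4.99, 4.39 and 3.58 RPKM in controls. Each D391N library was above each control, with 39 to 147 estimated reads per library and a log2 fold change of 1.40 ± 0.29 (adjusted p = 0.119), the smallest adjusted p among the members' transcripts. The most abundant POLR3E transcript (ENST00000564750), annotated as a target of nonsense-mediated decay (NMD), was at 19.7, 17.0 and 7.36 RPKM with D391N and at 15.0, 14.0 and 15.9 RPKM in controls, without a consistent order.

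In POLR3C, the main coding transcript (ENST00000334163) was at 19.3, 22.9 and 19.3 RPKM with D391N and at 17.6, 16.4 and 13.1 RPKM in controls (log2 fold change 0.39 ± 0.24, adjusted p = 0.415). Its second transcript (ENST00000466003), annotated as an NMD target, was at 1.29, 0.28 and 1.36 RPKM with D391N and at 3.55, 3.75 and 5.56 RPKM in controls (log2 fold change -2.23 ± 0.57, adjusted p = 0.160), from 4 to 92 reads per library. Both separated the groups, in opposite directions. In POLR3A, the full-length transcript (ENST00000372371) was at 10.4, 16.7 and 14.3 RPKM with D391N and at 12.0, 12.6 and 10.5 RPKM in controls. The short POLR3A transcript with no defined coding sequence (ENST00000472014) was at 3.51, 0.18 and 1.84 RPKM with D391N and at 5.74, 7.39 and 8.86 RPKM in controls, each D391N library below each control (log2 fold change -2.54 ± 0.89, adjusted p = 0.230).

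**Figure D4:**
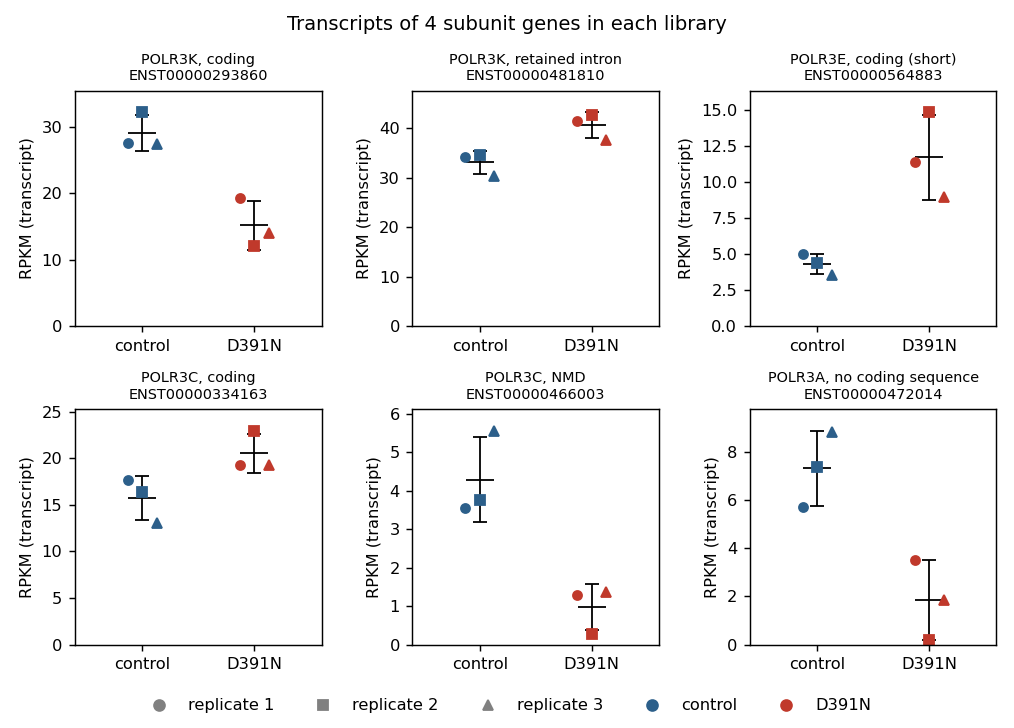
Level (RPKM) of 6 transcripts of POLR3K, POLR3E, POLR3C and POLR3A in each library, with mean (bar) and SD (whiskers); NMD marks a transcript annotated as a nonsense-mediated decay target. The groups do not overlap in any of these 6 transcripts, which were chosen for display after their values were seen; 3 are higher and 3 lower with D391N, and none passed the adjusted test.

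All 6 tested subunit transcripts annotated as NMD targets had log2 fold changes below 0, with a median of -1.13, and 3 of them, in POLR3C, POLR3D and POLR3G, had all D391N libraries below all controls. Of all 4210 tested NMD-annotated transcripts, 49.6% were below 0 and 12.9% were separated downwards, with a median of 0.01. The class was singled out after its values were seen, and none of the 6 passed the test (lowest adjusted p 0.160). The 20 protein-coding transcripts of the subunits had a median of 0.17, with 13 above 0.

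The POLR3D sum was led by a coding transcript of 683 nt (ENST00000519237), at 55.5, 104 and 74.7 RPKM with D391N and at 53.0, 51.8 and 63.5 RPKM in controls. It made up 61.1% to 69.8% of the sum with D391N and 51.3% to 53.4% in controls, while the 5494-nt transcript (ENST00000397802), chosen for its length, was at 4.03 to 4.48 RPKM with D391N and 4.51 to 5.26 RPKM in controls. The first place of POLR3D among the subunits therefore holds for sums of RPKM and not for its long coding transcript. The leading POLR3G transcript (ENST00000503373, 763 nt) was at 14.1, 41.8 and 30.1 RPKM with D391N and at 17.3, 17.5 and 16.2 RPKM in controls, the order of the gene sum. The leading POLR3GL transcript (ENST00000369314) was at 3.09, 7.75 and 6.07 RPKM with D391N and at 6.64, 9.71 and 9.93 RPKM in controls, where D391N replicate 2 overlapped the controls.

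The leading transcripts of POLR3F and POLR3B were not called either. The POLR3F transcripts ENST00000462997 and ENST00000489753 had log2 fold changes of 0.01 and 0.54, and the second separated the groups (D391N 15.5, 17.3 and 18.4 RPKM; controls 14.33, 11.14 and 10.01 RPKM; adjusted p = 0.306). In POLR3B, the 580-nt transcript ENST00000549569 was at 16.6, 3.90 and 7.63 RPKM with D391N and at 12.3, 13.2 and 11.5 RPKM in controls, whereas the 4183-nt transcript ENST00000228347 was at 6.54, 8.36 and 10.3 RPKM with D391N and at 7.31, 7.40 and 4.01 RPKM in controls. Their log2 fold changes were -0.63 and 0.45, and neither passed the test (adjusted p = 0.540 and 0.505).

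The deposited values also allow the polymerase mRNAs to be set beside the RNAs that Pol III makes. Of 37 Pol III RNA genes listed, 33 were matched (RN7SL1, RN7SL2, RPPH1 and RNY5 were not) and 32 tested, and all 32 had log2 fold changes below 0, also with median centring and quantile normalization. RNU6-7 (log2 fold change -3.52 ± 0.40, adjusted p = 0.0467) and RNU6-8 (-3.50 ± 0.32, adjusted p = 0.0282) were called lower, or 2 of 32 beside 0.135% of all genes. They are near-identical U6 genes that share reads, so these are not independent calls. The other U6 genes of the 5 listed overlapped between the groups (limma, adjusted p = 0.247 to 0.259). Each of those was higher in D391N replicate 1 than in control replicate 3. The call was lost in 13 of 16 alternative settings for RNU6-7 (adjusted p up to 0.236) and in 5 of 16 for RNU6-8 (up to 0.215). A further setting kept only transcripts whose BitSeq posterior variance (the uncertainty of a level) stood for at least 3 reads on average. This is not the read estimate from levels, so an RNA it left out was uncertain and not shown to have few reads. It tested 11 of the 32 RNAs, neither RNU6-7 nor RNU6-8 among them, and called 0 (limma, 5 at an unadjusted p under 0.05). The 17 5S rRNA genes, also near-identical, rested on control replicate 3, where their sum was 1725 RPKM against 83.6 and 52.1 RPKM in the other controls and 40.5 to 240 RPKM with D391N. Their sign turned without that library and with array weights, where 17 of the 32 RNAs were above 0. The libraries were depleted of rRNA, and the part of this depletion in the 5S values was not tested. Without the 5S genes, the median log2 fold change of the 15 others was -2.10, and 7 had all D391N libraries below all controls, beside 20.7% of all genes.

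The summed subunit mRNA level overlapped between the groups. Of the 9 gene sums, only POLR3GL was lower in all D391N libraries, as 7SK was, beside 20.7% of all genes tested. Of the 40 tested subunit transcripts, 7 were lower in all D391N libraries, the coding POLR3K transcript among them, and 5 were higher. Over all transcripts these shares were 15.6% and 10.1%. Whether subunit mRNAs and Pol III RNAs go together was not tested. The sum of the 9 subunit genes was 345, 431 and 353 RPKM in D391N replicates 1 to 3 and 358, 349 and 343 RPKM in the controls, a log2 ratio of the means of 0.10 that was -0.0034 without D391N replicate 2. The most abundant Pol III RNA, 7SK (RN7SK), was at 5701, 1677 and 2970 RPKM with D391N and at 13976, 23331 and 13758 RPKM in controls (log2 fold change -2.43 ± 0.61, adjusted p = 0.113). D391N replicate 2 thus had the highest subunit sum of all libraries and the lowest 7SK. In that library POLR3D (155 RPKM, control mean 107.6) and POLR3G (52.2 RPKM, control mean 25.1) stood furthest above their control means. POLR3B, POLR3GL and POLR3K were below theirs, so the sum does not stand for each subunit. The Y RNAs RNY1 and RNY3 overlapped between the groups: RNY1 was at 1412, 97.4 and 186 RPKM with D391N and 581 to 1320 RPKM in controls, and RNY3 at 881, 38.3 and 181 RPKM with D391N and 560 to 1029 RPKM in controls.

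The share of reads in transcripts under 200 nt was 2.43%, 0.342% and 1.52% in D391N replicates 1 to 3 and 2.89% to 3.18% in the controls. This class contains short Pol III RNAs such as U6 and Y RNAs, so the share is not independent of their levels. Its part in the lower values of these short RNAs was not tested. No correlation across the 6 libraries was computed, since they fall into groups of 3.

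**Figure D5:**
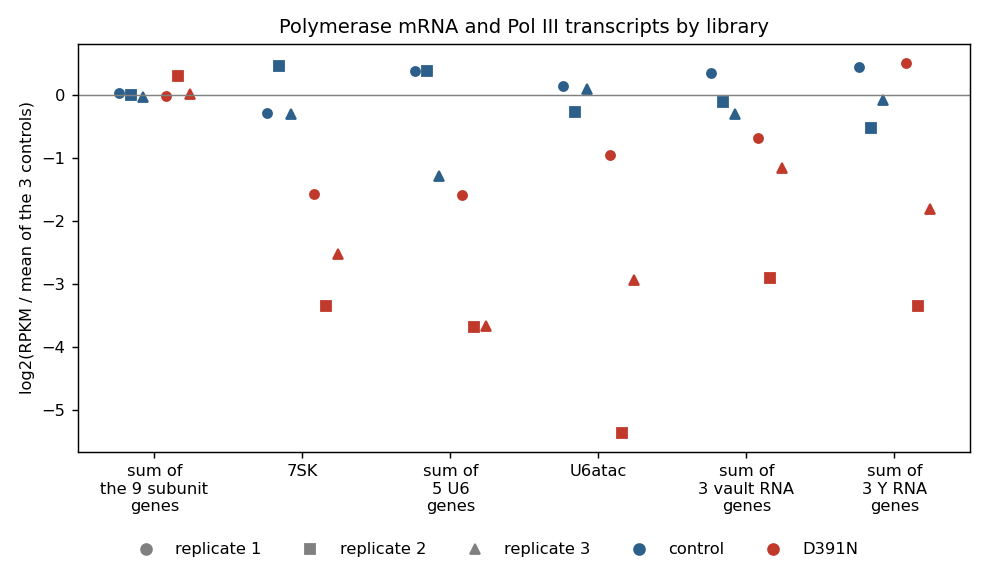
Log2 ratio of each library to the mean of the 3 controls for the sum of the 9 subunit genes and for Pol III transcripts (7SK, U6, U6atac, vault RNAs, Y RNAs; RPKM, vertical axis in log2 units). The subunit sum stays between -0.03 and 0.30 in all libraries, while 7SK is at -1.58, -3.34 and -2.52 in D391N replicates 1 to 3 and U6atac reaches -5.36 in replicate 2.

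The other listed parts of the Pol III machinery gave no call either. All 8 further subunits examined (CRCP, and subunits shared with Pol I or Pol II) had log2 fold changes below 0, with a median of -0.26, beside 57.3% of all genes below 0, while with median centring 4 of the 8 were above 0. The lowest were POLR2L (-0.84 ± 0.26, adjusted p = 0.140) and POLR2E (-0.81 ± 0.28, adjusted p = 0.164), both shared by all nuclear polymerases, and the highest CRCP (-0.01) and POLR2H (-0.07), which were 0.20 and 0.15 with median centring. Of these 8, 3 had all D391N libraries below all controls, beside 20.7% of all genes.

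Of 18 Pol III factors and regulators, 7 had log2 fold changes above 0 and 11 below, with a median of -0.11, and none was called (12 were above 0 with median centring). GTF3C6, a subunit of the promoter-binding factor TFIIIC, was at 98.2, 117 and 123 RPKM with D391N and at 61.8, 68.9 and 51.0 RPKM in controls (log2 fold change 0.90 ± 0.18, adjusted p = 0.0873). GTF3C5, another TFIIIC subunit, was at 30.4, 26.5 and 24.4 RPKM with D391N and at 43.0, 43.4 and 38.7 RPKM in controls (-0.62 ± 0.14, adjusted p = 0.102). BRF1, part of the initiation factor TFIIIB, was at 15.6, 19.9 and 10.7 RPKM with D391N and at 24.6, 24.9 and 28.6 RPKM in controls (-0.80 ± 0.24, adjusted p = 0.139). Each of these separated the groups, as did 7 of the 18 factors in all, 5 lower and 2 higher with D391N, beside 20.7% and 10.5% of all genes. SSB, which encodes the La protein that binds the 3′ ends of new Pol III transcripts, was at 222, 605 and 574 RPKM with D391N and at 242, 267 and 205 RPKM in controls (0.85 ± 0.40, adjusted p = 0.261). As for POLR3G, replicates 2 and 3 were high and replicate 1 was at the control level.

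Subunits of the other polymerases were not called in either direction. Of 5 tested Pol I subunits, the log2 fold changes ran from -0.04 (POLR1E) and 0.04 (POLR1A) to 0.45 (POLR1B) and 0.81 (POLR1F, listed as TWISTNB), with a median of 0.05. POLR1E was above 0 with median centring and quantile normalization. Of 7 Pol II subunits they ran from -0.64 (POLR2I) and -0.49 (POLR2J) to 0.27 (POLR2B) and 0.90 (POLR2A), with a median of -0.24. POLR1F was at 28.1, 73.6 and 64.6 RPKM in D391N replicates 1 to 3 and at 27.9 to 30.5 RPKM in controls, so that replicates 2 and 3 were high, as for POLR3G, and replicate 1 lay within the controls.

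The mean of the 9 subunits over the 6 libraries ran from -0.09 in control replicate 3 to 0.17 in D391N replicate 2 as the mean log2 deviation from each gene's own mean. Of 8615 other genes that averaged 10 RPKM or more, the nearest to it were FAM217B, NR1D2 and SEPHS2, with root mean square differences of 0.020, 0.020 and 0.024 on the log2 scale over 6 libraries. This mean averages subunits with unlike deviations, such as POLR3G (-0.54 to 0.77) and POLR3GL (-0.63 to 0.47), and is not the pattern of any 1 of them. There were 305 genes within 0.1 of it. Processed pseudogenes of the subunits (POLR3DP1, POLR3GP1, POLR3GP2, POLR3KP1 and POLR3KP2) could take reads from their parents, and their means over the libraries were 0.0980 to 0.914 RPKM, at most a small part of the parents' levels.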

How the data were processed

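The authors depleted rRNA (RiboMinus), made ScriptSeq libraries, sequenced them on a HiSeq2000 with 3 libraries per lane, removed adapters (cutadapt), mapped the reads to GRCh38 transcripts of Ensembl, coding and non-coding, using Segemehl, and quantified transcripts using BitSeq (versions not given in the sources used here; hg38 per the labels). The lanes of the libraries are not named, so lane and condition cannot be told apart. The deposited values, for 6 libraries, are each transcript's natural log RPKM (a posterior mean) and its posterior variance. Each natural log was exponentiated and RPKM was summed per gene. Depth and reads per transcript were estimated from the level of transcripts without reads, with lengths and biotypes from GENCODE 44, which may differ from the authors' release. They cover counting error only.

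Genes with a mean of at least 1 RPKM were compared on log2(RPKM + 0.1), which understates changes of low genes, with limma 3.58.1 (R 4.3.3, empirical Bayes with trend) over all genes, Benjamini-Hochberg adjusted p under 0.05. The same was done per transcript. Tables and plots used Python 3.11.15, pandas 2.3.3, numpy 2.4.6, scipy 1.17.1 and matplotlib 3.10.9, and the fit was tested on simulated data. The members and lists were chosen with earlier results of these data known. Genes named were all members, with transcripts taken from the 2 most abundant of each (not both for every gene), and DIS3L2. From each list they were those called (at most 5) or otherwise the 2 highest and 2 lowest log2 fold changes, with the 3 most abundant Pol III RNAs. 1 listed gene is not reported here. Other transcripts, and the RNA groups plotted, were chosen after their values were seen. Alternatives were other pseudocounts, filters, scalings, limma settings, a replicate block and each library left out. Another kept only transcripts with at least 3 reads as judged by their posterior variance. Protein-coding sums and the median without 5S rRNA were added after seeing the data.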

Additional observations from a re-analysis of the deposited data

How the results depend on the processing

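No subunit was called under any alternative except POLR3G without D391N replicate 1 and POLR3K from protein-coding transcripts (1 member each). Signs turned as follows. With median centring, which moved the median of all genes from -0.09 to 0.13, POLR3A became 0.075, POLR3K 0.063, POLR2H 0.15, CRCP 0.20 and POLR1E 0.18, the median of the subunits 0.29 and the log2 ratio of their summed level 0.32 instead of 0.10. With quantile normalization CRCP was 0.035 and POLR1E 0.091, and with array weights POLR3B was -0.031 and POLR1A -0.034. From the most abundant transcript POLR3A was 0.21, POLR3B -0.63, POLR3E -0.14 and POLR3K 0.30, and from protein-coding transcripts POLR3A was 0.21 and the median 0.25. When each library was left out in turn, signs turned within the ranges -0.16 to 0.16 for POLR3B, -0.12 to 0.26 for POLR3D, -0.11 to 0.35 for POLR3E, -0.035 to 0.13 for POLR1A, -0.083 to 0.014 for POLR1E and -0.16 to 0.11 for CRCP. The cause of these turns was not tested.

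Genes called, 29 in the main comparison (4712 at an unadjusted p under 0.05), were 61 and 16 with pseudocounts of 1 and 0.01, 6 with a mean of at least 5 RPKM, 18 without a filter, 14 with median centring, 17 with quantile normalization, 71 with array weights, 593 from protein-coding transcripts and 2 to 2267 when each library was left out. Members called ranged from 0 to 1 and the median of the subunits from -0.11 to 0.15 over the libraries left out. Pol III RNAs called were 1 with a pseudocount of 0.01, a mean of at least 0.1 or 5 RPKM, or no filter. They were also 1 with median centring, quantile normalization or limma without trend. They were 0 from transcripts with at least 3 reads by posterior variance, and 0 to 9 over the libraries left out (9 without D391N replicate 1). The median of all 32 Pol III RNAs, -0.96, became 0.46 without control replicate 3 and 0.13 with array weights, while without 5S rRNA it lay between -2.89 and -1.56 over the libraries left out.

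The check of pairing gave r = 0.0699, 0.221 and -0.111 between the deviations of libraries with the same number, so the numbers were not taken as pairs. With the replicate block, 2 genes, 0 subunits and 0 Pol III RNAs were called (4133 genes at an unadjusted p under 0.05). Depth limits the transcripts with few reads, such as the NMD-annotated POLR3C form, more than the gene sums.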
